A study of Zea mays with 3 samples.

Results

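Oxophytodienoate reductases (OPRs) are flavin enzymes of the octadecanoid pathway. The genes described here are 3 OPR genes of maize, which the reference gene table names opr7 (GRMZM2G148281), opr8 (GRMZM2G082087) and opr3 (GRMZM2G156712). They were taken by identifier, with every transcript and every probe that the array carries for them, which gave 5 transcripts and 11 probes of 59756 transcripts and 139000 probes in all. The arrays analysed here are those of Urea+NBPT roots in 3 replicates. Maize plants of cultivar PR33T56, a hybrid according to the sample labels, were 5 days old when their roots were placed for 8 h in 0.5 mM urea with 0.897 μM NBPT, an inhibitor of urease, and roots of 6 plants from an independent experiment were pooled for each replicate. Arrays of Urea or Control roots were not analysed here, so the values describe one treatment and give no response to NBPT.

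Jasmonates are lipid hormones of wounding, defence and development. A lipoxygenase, an allene oxide synthase and an allene oxide cyclase turn a plastid fatty acid into 12-oxophytodienoic acid (OPDA), an OPR reduces OPDA in the peroxisome, and beta-oxidation then shortens the product to jasmonic acid. In maize, opr7 and opr8 are close paralogs that act in this reduction, and plants lacking both are deficient in jasmonate. Maize opr3 belongs to the other OPR subgroup, with the Arabidopsis genes OPR1 and OPR2 and, despite its name, is not the counterpart of Arabidopsis OPR3. A role of maize opr3 in jasmonate synthesis is therefore not taken for granted here.

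Each array gave an intensity per probe. The deposited intensities had a median of 550, 550 and 550 in replicates 1, 2 and 3, and when the values of each array were sorted, those of equal rank were within 0.183% of each other. Across transcripts the replicates correlated at 0.980 (1 and 2), 0.990 (1 and 3) and 0.978 (2 and 3), where transcripts are not independent replicates. The background was read from 1663 random control probes. The threshold was their 95th percentile on each array, and detection means a value above it on all arrays. It was 285, 299 and 285 as a deposited intensity, and 8.24, 8.30 and 8.24 on the normalized log2 scale. The root markers found in the reference table (rth3, rtcs1 and ys1) were detected in 5 of 5 transcripts, and the leaf markers Rubisco small subunit (ssu1) and Rubisco activase (rca1) in none. Of the other leaf markers, pep1 and ppdk1 were detected, in 4 of 4 transcripts. Since each probe has its own binding strength, no level of one transcript is set against that of another.

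In Urea+NBPT roots 3 of the 5 transcripts were detected, while 62.6% of all transcripts on the array were. The detected transcripts were opr7 T01, opr8 T02 and opr3 T01. The opr7 transcript T02 lay above the threshold on no array and the opr8 transcript T01 on 1 array. At a stricter threshold, the 99th percentile of these controls, opr7 T01 and opr8 T02 were detected and opr3 T01 was above it on 1 array, while 47.4% of all transcripts passed.

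**Figure D1:**
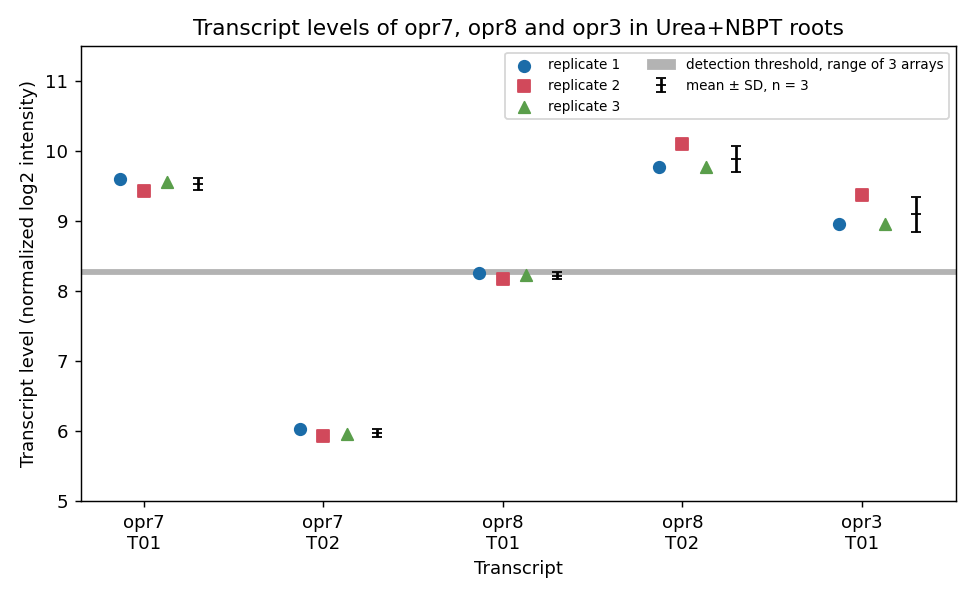
Normalized log2 level (vertical axis) of each transcript of opr7, opr8 and opr3 (horizontal axis) on the 3 arrays of Urea+NBPT roots, with mean ± SD; the grey band is the range of the detection threshold over the arrays, 8.24 to 8.30. Replicate 2 is the highest point in opr8 T02 and opr3 T01 and the lowest in the other 3 transcripts.

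The opr7 transcript T01 had levels of 9.59, 9.43 and 9.56 in replicates 1, 2 and 3. Its mean was 9.53 ± 0.09 (SD, n = 3), with a 95% interval from limma of 9.34 to 9.72. The replicates thus lay close together, and 78.8% of the detected transcripts had an SD at least as large. This level is the midpoint of a bright and a dim probe. The probe that starts at base 860 of the transcript had deposited intensities of 5012, 5001 and 5101, which is 68.4, 71.8 and 72.4 times the median of the random control probes. The probe that starts at base 1578 had 102, 77.3 and 94.8, and 71.0%, 56.8% and 70.2% of the random control probes lay below it. The bright probe thus lay above 100% of the random control probes on each array, while the dim one lay among them. Of all detected transcripts, 20.9% likewise had at least 1 probe above the threshold on no array. The mean intensity of the bright probe was 55.2 times that of the dim one. Over the 59750 transcripts with more than 1 probe, the median ratio of brightest to dimmest probe was 2.82. In 4.36% of them the ratio was at least as large as in opr7 T01.

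The opr7 transcript T02 had levels of 6.03, 5.93 and 5.95, and a mean of 5.97 ± 0.05 (SD, n = 3). Its probes start at bases 691 and 700. The first had deposited intensities of 45.0, 39.3 and 43.4 and the second 52.3, 49.1 and 46.6, all below the random median of 73.3, 69.6 and 70.4 of the same arrays. No signal of this transcript form was detectable with these probes, which does not show that it is absent.

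The opr8 transcript T02 had levels of 9.78, 10.10 and 9.78, so replicate 2 was highest and the other replicates were nearly equal. The mean was 9.89 ± 0.19 (SD, n = 3), with a 95% interval from limma of 9.60 to 10.17. It was the only transcript of the 3 genes with every probe above the threshold on all arrays, 1 of 5, while 42.1% of the transcripts on the array were of this kind. At least 1 such probe was found in 4 of the 5 transcripts and in 74.3% of those on the array. The probe at base 272 had deposited intensities of 2192, 3031 and 2375, or 29.9 to 43.5 times the random median. The probe at base 360 had 332, 380 and 305, or 4.33 to 5.46 times that median. Both probes were highest in replicate 2, by 0.41 and 0.25 on the log2 scale over the mean of the other replicates.

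The opr8 transcript T01 had levels of 8.26, 8.18 and 8.23, on either side of the threshold, and was not called detected. Its mean of 8.22 ± 0.04 (SD, n = 3) had the smallest SD of the 5 transcripts, although its probes disagreed. One probe, at base 11, had deposited intensities of 131, 270 and 108 and was high in replicate 2. Another, at base 14, had 290, 134.8 and 283 and was low in replicate 2. The last, at base 72, had 395, 353 and 367, above the threshold on all arrays. Replicate 2 minus the mean of the others was thus 1.08, -1.0 and -0.10 (log2) in probes of one transcript, and the level of the transcript, a median polish over the probes, shows neither deviation. With the mean of the probe values in its place, the level was 7.99 and lay above the threshold on 0 arrays.

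The probes at bases 11 and 14 of opr8 T01 start 3 bases apart. Their deviations of replicate 2 differed by 2.08 on the log2 scale. The array holds 4490 pairs of probes of 1 transcript that start at most 10 bases apart. Their median difference was 0.28, and 0.47% differed by at least 2.08. In the close pair of opr7 T02 the difference was 0.11. Both opr8 probes are dim, and the first lay above the threshold on 0 arrays and the second on 1. They were singled out after their values had been seen, so the share is not a test. The median deviation of replicate 2 over the spots around each probe, within 15 grid positions, was 0.25 for the probe at base 11 (343 spots) and -0.20 for that at base 14 (343 spots), each of the same sign as its probe and smaller. The part of position on the array in the probe values was not tested.

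**Figure D2:**
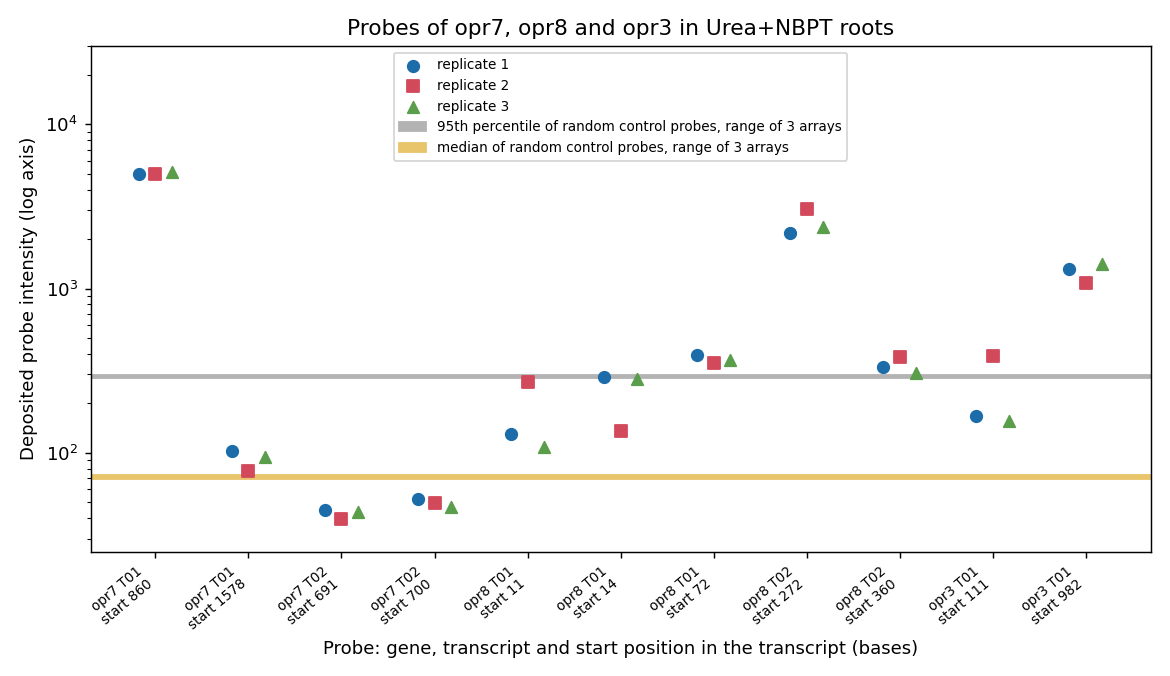
Deposited intensity on a log axis of the 11 probes of opr7, opr8 and opr3 (horizontal axis: transcript and start position in bases), for each replicate of Urea+NBPT roots. Bands mark the median and the threshold set by random control probes; the opr7 probe at 860 lies at 5001 to 5101, and the opr8 probes at 11 and 14 show opposite positions of replicate 2.

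The opr3 transcript T01 had levels of 8.95, 9.38 and 8.95, with replicate 2 highest. It averaged 9.09 ± 0.25 (SD, n = 3), with a 95% interval from limma of 8.75 to 9.44, and 30.1% of the detected transcripts had an SD at least as large. The probe at base 111 had deposited intensities of 166, 389 and 157, so that it passed the threshold in replicate 2 and in neither other replicate. The probe at base 982 had 1322, 1074 and 1402, above the threshold on all arrays and lowest in replicate 2. The higher transcript level in replicate 2 thus came from the dim probe, where replicate 2 exceeded the others by 1.19 (log2), while in the bright probe it lay 0.34 below them. Spots around these probes had median deviations of replicate 2 of 0.21 (341 spots, base 111) and 0.33 (181 spots, base 982), the second of opposite sign to its probe. After removal of a smooth gradient over the array surface, the range between replicates was narrower in 2 of the 5 transcripts, with 0.23 against 0.43 without this step in opr3 T01 and 0.27 against 0.33 in opr8 T02. It was wider in the other 3, with 0.21 against 0.09 in opr8 T01, 0.18 against 0.10 in opr7 T02 and 0.21 against 0.17 in opr7 T01.

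Between replicates, 0 of the 5 transcripts differed by more than 2-fold, while 5.02% of all transcripts and 4.05% of the detected ones did. Of the 11 probes, 3 differed by more than 2-fold on the normalized log2 scale, while 10.2% of all probes did. Among the probes of the other OPR genes on the array, 4 of 17 did so. The 3 were the opr8 probes at bases 11 and 14, with 2.29-fold and 2.02-fold, and the opr3 probe at base 111, with 2.34-fold. All had mean log2 values between 7 and 8, below the threshold, and of the 20430 probes of transcripts in that interval 21.7% differed by more than 2-fold. Replicate 2 lay more than 1 above the others in 2 of the 11 probes and in 3.34% of all probes. It lay more than 1 below them in 1 of the 11 and in 1.87% of all. Replicate 2 was the highest in 4 of the 11 probes, while 35.1% of all probes had their highest value there. It was also highest in 2 of the 3 detected transcripts, beside 32.2% of the detected transcripts of the array. In the other 3 of the 5 transcripts replicate 1 was highest, as in 33.4% of all transcripts.

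**Figure D3:**
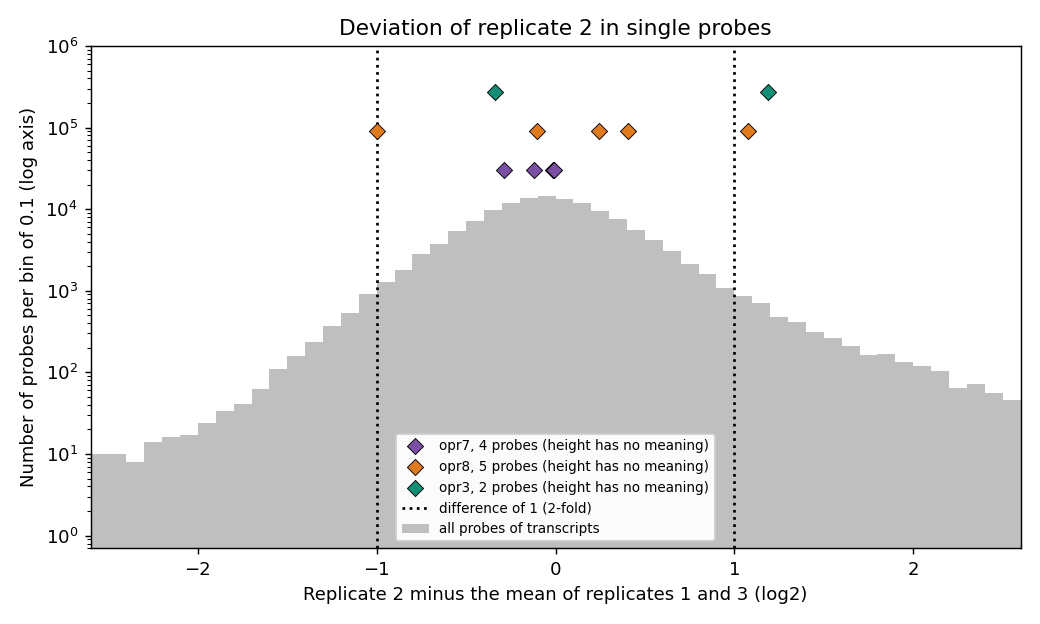
Replicate 2 minus the mean of replicates 1 and 3 on the log2 scale (horizontal axis) for the 11 probes of opr7, opr8 and opr3 (diamonds) over the distribution of all probes of transcripts (grey bars, number of probes on a log axis). The 4 opr7 probes lie within 0.30 of zero, and 2 opr8 probes and 1 opr3 probe lie at or beyond a difference of 1.

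In total 5 of the 11 probes lay above the threshold on all arrays, namely 1 of opr7, 3 of opr8 and 1 of opr3, and 57.5% of all probes did. Another 4 lay above it on no array, of which 3 belong to opr7, and 32.7% of all probes did so. In the detected transcripts of opr7 and opr3, 1 of the 2 probes lay above the threshold on all arrays, and in that of opr8 2 of 2. Whether a probe of opr7 also binds RNA of opr8, or the reverse, was not tested.

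By replicate profile, opr3 T01, the detected transcript of these genes with the largest range, was most like GRMZM2G365544_T01, GRMZM2G056564_T01 and GRMZM2G173067_T02. The Euclidean distances between their deviations from the mean were 0.0019, 0.0025 and 0.0027 over 3 arrays. A profile over 3 arrays is shared by many transcripts, and 1057 of the 37379 detected ones lay within 0.1 of it. The profile of opr3 T01 is the midpoint of 2 probes in which replicate 2 deviated by 1.19 and -0.34 (log2). Neither probe has this profile by itself.

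The reference table names 5 more OPR genes, of which opr1, opr2, opr5 and opr6 pair with an array gene. Of their 6 transcripts, 3 were detected, beside 62.6% of all transcripts on the array, and all 3 belong to opr5 (GRMZM2G087192). The opr5 transcript T01 had levels of 12.68, 12.99 and 13.34, and all of its 3 probes lay above the threshold on all arrays. Its transcripts T02 and T03 had 10.99, 11.12 and 11.59, and 9.50, 9.41 and 10.08. In opr5 replicate 3 was highest in 8 of 8 probes, some of which start close together, while 32.3% of all probes had their highest value there. In the 11 probes of opr7, opr8 and opr3, replicate 3 was highest in 2. It was highest in 0 of their 5 transcripts, in 4 of the 6 transcripts of the other OPR genes and in 31.9% of all transcripts. The transcripts of opr1, opr2 and opr6 had mean levels of 7.61 ± 0.03, 7.54 ± 0.19 and 8.30 ± 0.39 (SD, n = 3) and were not detected. The opr6 transcript lay above the threshold on 1 array. These levels do not show the spread of single probes. Of the 9 probes, 3 differed by more than 2-fold between replicates. They were opr1 at base 1254 (2.18-fold), opr2 at base 1380 (2.36-fold) and opr6 at base 479 (2.25-fold). Those of opr1 and opr2 lay above the threshold on 2 arrays each. The opr6 probe at base 937 lay above it on all arrays.

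Of the other pathway steps, lipoxygenases, which start jasmonate synthesis or make other oxylipins, were detected in 16 of 21 transcripts of 11 genes. Allene oxide synthases were detected in 3 of 4 transcripts, and allene oxide cyclases in 4 of 4. The TIFY family, which includes the JAZ repressors of jasmonate signalling, was detected in 18 of 33 transcripts of 21 genes. Together 44 of these 68 transcripts, with the 6 of the other OPR genes counted in, were detected, against 62.6% of the array. Between replicates 0 of the 68 differed by more than 2-fold, while 5.02% of all transcripts did. No gene of beta-oxidation, of jasmonate conjugation or of the COI receptor was found by symbol or synonym in the reference table. Only a few name patterns were searched and gene descriptions were not, so such genes may stand there under other names.

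**Figure D4:**
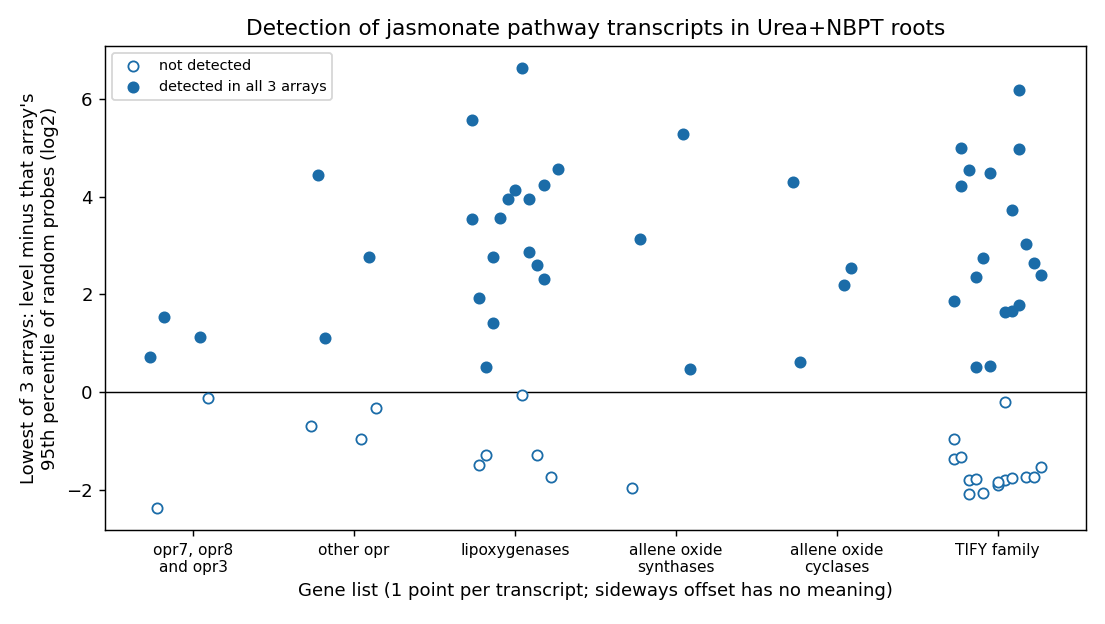
Lowest margin over the 3 arrays of each transcript's log2 level above that array's 95th percentile of random control probes (vertical axis), by gene list (horizontal axis), in Urea+NBPT roots; filled points were detected. The 3 genes have 3 filled and 2 open points, and the lists 16 of 21 filled for lipoxygenases, 3 of 4 for allene oxide synthases, 4 of 4 for allene oxide cyclases and 18 of 33 for the TIFY family.

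The detected transcript with the largest range between replicates was lox5 T03 (GRMZM2G102760) among the lipoxygenases, with 11.81, 12.75 and 11.79 in replicates 1, 2 and 3. Replicate 2 was highest in 14 of the 21 lipoxygenase transcripts, in 2 of the 5 transcripts of opr7, opr8 and opr3, in 0 of the 6 of the other OPR genes and in 33.7% of all transcripts on the array, and transcripts of 1 gene are not independent. For the allene oxide synthases it was aos2 (GRMZM2G002178), with 13.84, 13.65 and 13.53, and for the cyclases aoc1 T02 (GRMZM2G077316), with 10.81, 10.56 and 10.43. In both, replicate 1 was highest and replicate 3 lowest. In the TIFY family it was GRMZM2G117513_T01, with 11.77, 11.34 and 11.92, where replicate 2 was lowest.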

How the data were processed

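Total RNA of Urea+NBPT roots was measured in 3 replicates on NimbleGen maize arrays. After hybridization of Cy3-labelled cDNA, the authors read 1 intensity per probe with NimbleScan, and the labels name RMA. The deposited intensities are linear and appear to be quantile normalized already. The value table of the series holds the same numbers (0 of 140663 probes differed). Background correction of the deposited intensities (normexp, offset 50), log2 transformation, quantile normalization between arrays and median polish over the probes of a transcript followed (R 4.3.3, limma 3.58.1). Probe values are deposited intensities, or normalized log2 values where stated. The 95% intervals come from a limma fit over 59756 transcripts, and the number of arrays limits the precision.

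With 1 group, no conditions were compared and no p-value was computed. Alternatives covered background correction, normalization, probe summary, the value table, a gradient over the array surface, the threshold and leaving out each replicate. Gene names came from RefSeq (Zm-B73-REFERENCE-NAM-5.0), where 18171 of 39219 array genes paired with 1 gene. The genes and lists were chosen with earlier results of these data known. Every transcript and probe of the 3 genes and every transcript of the other OPR genes is named. From each other pathway list the detected transcript with the largest range is named, and for the replicate profile the 3 nearest transcripts. Of 8 root and 8 leaf marker names, 3 and 4 were found on the array. The steps were run on simulated data in which all probes of a transcript were raised together, and raised transcripts were scored only where the probes were bright. Transcripts with dim or disagreeing probes, as in opr8 T01 and opr3 T01, were thus not covered.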

Additional observations from a re-analysis of the deposited data

How the results depend on the processing

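Of the 5 transcripts of opr7, opr8 and opr3, 3 were detected without background correction, with normexp at offset 0, without further quantile normalization, with scaling to one median, with the mean of probe values, with the authors' value table, after removal of a surface gradient, with detection in at least 2 arrays, and 3 to 3 when one replicate was left out. With the 99th percentile 2 were detected. If every probe had to pass, a setting added after seeing the data, 1 was, and if 1 probe sufficed, 4 were. The count over 2-fold between replicates was 0 under every planned setting and 0 to 0 without one replicate. In a setting added later, 2 of the 5 transcripts held a probe over 2-fold. The share of such transcripts on the whole array was not computed, so this count has no background to be read against. Of the 68 other pathway transcripts, 39 to 45 were detected under the planned settings, 44 to 45 without one replicate, and 31 if every probe had to pass. Mean levels moved by more than 1 SD in 10 cases, 6 of them in opr8 T01, whose level was 7.74 without replicate 1 and 7.75 without replicate 3, and the other 4 in opr7 without background correction or with offset 0. Several settings could not move a level by construction, since the value table holds the same numbers, the arrays were already normalized, and the mean equals median polish for 2 probes. Replicate 2 set the range of opr8 T02, which was 0.33 with it and 0.00056 without it, and of opr3 T01, which was 0.43 and 0.0033. No paired analysis was possible because all arrays belong to one group. The random control probes set the limit of detection, and 6 of the 11 probes lay at or below it on at least 1 array.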
